A study of Mus musculus with 6 samples.

Results

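Annexins, S100 proteins and galectin-1 are cytoplasmic proteins, some of them also secreted, that act at membranes or bind sugar chains on the cell surface. Of these, 10 genes were followed here: the annexin genes Anxa1, Anxa2, Anxa3, Anxa5 and Anxa6, the S100 genes S100a4, S100a6, S100a10 and S100a11, and Lgals1, which encodes galectin-1. They were chosen by name, with earlier results of these data known. All 10 were measured among 19938 genes, each through its brightest probe set that carries a single gene symbol. The samples were bulk cultures of W4, a mouse embryonic stem cell line, driven towards neurons for 16 days in medium that held B27, N2, bFGF, laminin, albumin, insulin and beta-mercaptoethanol. In 1 group of 3 arrays the cells also received 300 uM sodium valproate (VPA), an antiepileptic drug and histone deacetylase inhibitor, over those 16 days. The other group of 3 arrays received phosphate-buffered saline (PBS), the solvent. The design text calls the 3 arrays of a group biological replicates, and both groups come from the same cell line, so other lines were not covered. The comparison asks which of these transcripts differ when a developmental neurotoxicant is present while neurons form.

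Annexins bind acidic phospholipids when calcium rises, through a core of repeated folds, and take part in membrane traffic, membrane repair and the control of clotting and inflammation. S100 proteins are small calcium-binding EF-hand proteins that bind target proteins as dimers. The families meet physically: S100A10 binds the amino-terminal end of annexin A2, S100A11 that of annexin A1, and S100A10, which itself no longer binds calcium, is stabilised by annexin A2. Galectin-1 is a lectin for beta-galactosides on cell-surface glycoproteins. In nervous tissue many of these genes are better known from fibroblasts, vessels, meninges and glia than from neurons.

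RefSeq promoter windows (build GRCm38.p6) were matched for 6 of the 10 genes, Anxa1, Anxa2, Anxa5, S100a4, S100a6 and S100a11. Anxa3, Anxa6, S100a10 and Lgals1 had none in the table. The 250 bases before the annotated start are shown for S100a11 and Anxa2, which rose and hold matches to the AP-1 letters. The same bases are shown for Anxa5, which also rose. They are shown too for S100a4, whose signal did not change and was not told apart from background. The windows of Anxa1 and S100a6, which were also called higher, are not printed and hold no AP-1 match. Capitals mark matches to 6 motifs searched on both strands, named after the windows. The windows lie at chr3:93520246-93520495 (plus strand) for S100a11, chr9:69453433-69453682 (plus) for Anxa2, chr3:36475888-36476137 (minus) for Anxa5 and chr3:90603520-90603769 (plus) for S100a4.
S100a11: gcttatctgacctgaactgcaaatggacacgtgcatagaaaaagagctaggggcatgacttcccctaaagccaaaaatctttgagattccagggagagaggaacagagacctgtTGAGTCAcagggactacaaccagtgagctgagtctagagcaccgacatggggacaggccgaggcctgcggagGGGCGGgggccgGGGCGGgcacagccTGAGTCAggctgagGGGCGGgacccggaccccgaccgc
Anxa2: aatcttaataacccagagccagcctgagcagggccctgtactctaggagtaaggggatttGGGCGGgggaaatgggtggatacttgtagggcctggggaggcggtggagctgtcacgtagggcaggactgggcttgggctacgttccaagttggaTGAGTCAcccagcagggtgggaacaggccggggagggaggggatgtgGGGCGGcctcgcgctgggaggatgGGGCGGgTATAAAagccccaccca
Anxa5: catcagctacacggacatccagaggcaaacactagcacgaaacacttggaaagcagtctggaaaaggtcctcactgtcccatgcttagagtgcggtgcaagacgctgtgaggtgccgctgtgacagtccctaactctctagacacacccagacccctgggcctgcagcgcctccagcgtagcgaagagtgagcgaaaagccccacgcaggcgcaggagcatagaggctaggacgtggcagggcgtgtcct
S100a4: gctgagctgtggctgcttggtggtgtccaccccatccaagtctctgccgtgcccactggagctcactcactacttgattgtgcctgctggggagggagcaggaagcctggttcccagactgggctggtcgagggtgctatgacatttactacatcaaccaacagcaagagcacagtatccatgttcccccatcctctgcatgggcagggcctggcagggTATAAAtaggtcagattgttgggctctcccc

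The motifs were the TATA box TATAAA, found in 12.4% of the 32851 windows of this length in the table, and the Sp1/KLF box GGGCGG, found in 32.7%. The AP-1 letters TGANTCA occurred in 6.75% of windows and the TEAD letters GGAATG in 12.6%. The cyclic AMP element TGACGTCA was in 1.55%, and the CArG box bound by serum response factor in 1.47%. S100a11 held 3 GC boxes and 2 AP-1 matches, and Anxa2 held 3 GC boxes, 1 AP-1 match and 1 TATA box. S100a4 had a TATA box at bases -31 to -26 from the start and no other match. Anxa1 had 1 TATA box and 1 TEAD match, while Anxa5 and S100a6 had none of the 6 motifs. No match overlapped another motif. G or C made up 60.0% of the 250 bases in S100a11, 62.4% in Anxa2, 58.8% in Anxa5 and 57.2% in S100a4, beside a median of 52.4% over all windows. CpG dinucleotides numbered 11, 9, 13 and 2 in the same order, beside a median of 6. A match describes the letters only; binding was not measured.

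Of the 10 genes, 9 were higher with VPA and 0 lower by limma at a Benjamini-Hochberg adjusted p under 0.05 over all 19938 genes, while S100a4 did not pass. Over all genes, 29.2% had an adjusted p under 0.05, 13.6% higher and 15.7% lower. Of the 10 genes, the counts were also 9 and 0 at an unadjusted limma p under 0.05. For that looser cut-off, here and below, the share over all genes was not counted and is at least the same 29.2%. In the same 9 genes every VPA array lay above every PBS array, which was so for 20.2% of all genes. The median change of the 10 genes was 0.98 on the log2 scale, beside 0.0013 over all genes. All values below are normalized log2 signals, and changes are VPA minus PBS with the standard error (SE) of the limma fit. In bulk cultures a lower share of a cell type and less RNA per cell cannot be told apart, and the same holds for a rise. A mean below 6.15, the 95th percentile of 1027 olfactory receptor genes, was not told apart from background. Across all genes VPA replicate 1 lay further from the other VPA arrays (median absolute difference 0.12 and 0.13) than they lay from each other (0.07) or the PBS arrays from one another (0.06 to 0.07).

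**Figure D1:**
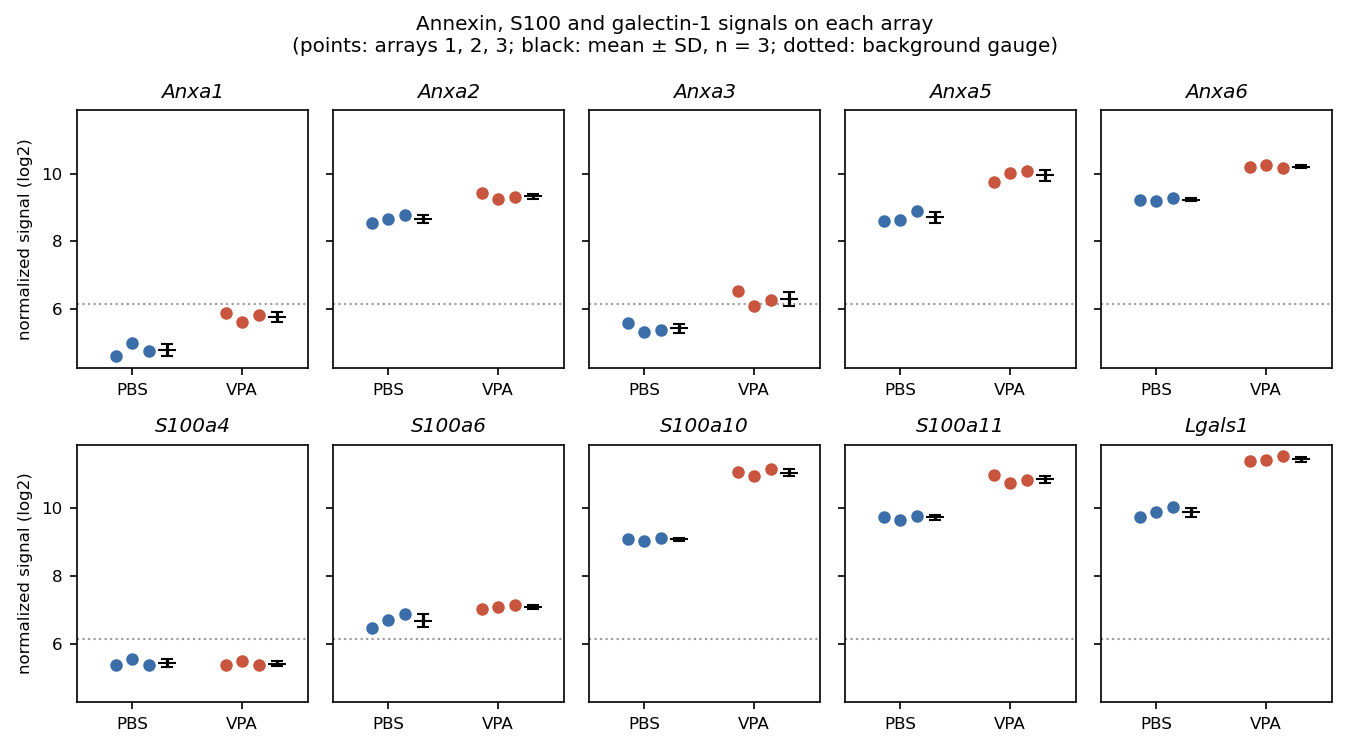
Normalized log2 signal of the 10 genes on each array (points, PBS blue and VPA red, arrays 1 to 3 from left to right), with the mean ± SD of each group (n = 3) and the background gauge of 6.15 as a dotted line. In 9 panels the VPA points lie above all PBS points; S100a4 overlaps below the gauge, and Anxa1 stays below the gauge in both groups.

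Among the S100 genes, S100a10 had the largest rise. This partner of annexin A2, which carries channels and receptors to the plasma membrane, read 9.08, 9.03 and 9.10 on PBS arrays 1 to 3 and 11.05, 10.92 and 11.13 on VPA arrays 1 to 3. The groups lay far apart relative to their spread, with SDs of 0.04 and 0.10 (n = 3). The change was 1.96 (SE 0.07, 95% interval 1.81 to 2.11, limma adjusted p = 7.95e-07), or 3.89-fold on the linear scale, and only 0.155% of all genes had a larger rise.

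S100a11, the annexin A1 partner, is also known from keratinocytes and from membrane repair. Its PBS values were 9.74, 9.64 and 9.77 and its VPA values 10.96, 10.73 and 10.83. The groups did not overlap, and the rise was 1.12 (SE 0.07, 95% interval 0.96 to 1.28, limma adjusted p = 1.09e-05), 2.18-fold. A second probe set that carries the S100a11 symbol gave nearly the same change, 1.11 (SE 0.07). Whether the probe sets also read near-identical copies of the gene was not tested.

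S100a6 encodes calcyclin, an S100 protein of proliferating cells, fibroblasts and glia. It read 6.48, 6.70 and 6.86 with PBS and 7.01, 7.09 and 7.13 with VPA. The VPA arrays were close together and the PBS arrays were spread, so the gap between the groups was narrow. The rise of 0.39 (SE 0.09, limma adjusted p = 0.0131), 1.31-fold, was the smallest among the 9 as read by each gene's brightest probe set. With the variances left unmoderated it no longer passed (limma fit, adjusted p = 0.101), and its change was 0.29 to 0.49 with any 1 array left out.

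S100a4, also called fibroblast-specific protein and used as a marker of fibroblasts and of epithelial-mesenchymal transition, behaved differently. It read 5.37, 5.56 and 5.37 with PBS and 5.38, 5.49 and 5.36 with VPA. The groups overlapped, and all 6 values lay below the background gauge. The difference was -0.02 (SE 0.07, 95% interval -0.18 to 0.14, limma adjusted p = 0.845). The sign of this difference turned without PBS replicate 2, without VPA replicate 3 and with array weights, always without passing the threshold. With both means below the gauge, the interval bounds the measured signal and not the transcript.

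Among the annexins above the gauge in both groups, Anxa5 had the largest change. Its product binds phosphatidylserine and is the common probe for dying cells. The PBS arrays read 8.59, 8.64 and 8.90 and the VPA arrays 9.75, 10.004 and 10.08. VPA replicate 1 was the lowest of its group, 0.29 below the mean of the other VPA arrays, and still above every PBS array. Anxa5 rose by 1.23 (SE 0.11, 95% interval 0.99 to 1.47, limma adjusted p = 5.34e-05), 2.35-fold.

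Anxa6, which encodes an annexin with a doubled core that works in endosomal traffic and cholesterol handling, gave tight groups. It read 9.22, 9.18 and 9.27 with PBS and 10.18, 10.25 and 10.18 with VPA. The change of 0.98 (SE 0.06, limma adjusted p = 6.57e-06), 1.97-fold, came from the brighter of its 2 probe sets. The dimmer probe set, at 6.67, 6.68 and 6.74 with PBS and 6.68, 6.90 and 6.77 with VPA, changed by 0.09 (SE 0.07, limma adjusted p = 0.389 over 23410 probe sets). The mean of both probe sets gave 0.53 (adjusted p = 0.000252). The 2 probe sets therefore disagreed on the size of the change, and why was not tested.

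Anxa2, which joins S100A10 at the plasma membrane and promotes plasmin formation on the cell surface, read 8.55, 8.65 and 8.77 with PBS and 9.41, 9.26 and 9.30 with VPA. Every VPA array was above every PBS array, and the rise was 0.67 (SE 0.07, 95% interval 0.50 to 0.83, limma adjusted p = 0.000221), 1.59-fold.

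The remaining annexins were dim. Anxa1 encodes an anti-inflammatory annexin that glucocorticoids induce; it read 4.64, 5.01 and 4.76 with PBS and 5.89, 5.62 and 5.84 with VPA. The measured difference was 0.98 (SE 0.10, limma adjusted p = 0.000174), but both means, 4.80 and 5.78, lay below the gauge, so the size of the change is not defined. Anxa3 read 5.59, 5.35 and 5.39 with PBS and 6.53, 6.11 and 6.28 with VPA. Its difference was 0.86 (SE 0.11, limma adjusted p = 0.000451), and its mean went from 5.44, under the gauge, to 6.31, just over it. VPA replicate 1 was the highest Anxa3 value, 0.34 above the mean of the other VPA arrays, and without that array the difference was 0.75.

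Lgals1 had the second largest change of the 10 genes. Galectin-1 binds integrins, laminin and other glycoproteins and is abundant in mesenchyme and in some sensory and motor neurons. The PBS arrays read 9.74, 9.86 and 10.01 and the VPA arrays 11.38, 11.41 and 11.52. The groups were separated by more than 1 log2 unit. The rise was 1.56 (SE 0.08, 95% interval 1.38 to 1.74, limma adjusted p = 3.29e-06), 2.95-fold, and 0.336% of all genes rose more.

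Changes were also compared between pairs of genes within each array, not all of them known partners. The log2 difference S100a10 minus Anxa2 was 0.42 ± 0.11 with PBS and 1.71 ± 0.10 with VPA (SD, n = 3), a shift of 1.29 (exact permutation p = 0.1). That is the smallest two-sided p that 3 arrays against 3 can give, so the test cannot pass 0.05. The shift of S100a11 minus S100a6 was 0.73 and that of Anxa5 minus Anxa2 was 0.57, both at p = 0.1 by the exact permutation test. In all, 6 such pairs were picked after their values were seen, and the p of 0.1 became 0.12 after Benjamini-Hochberg adjustment of the 6 exact permutation p-values. The pair of S100a11 with Anxa1 and the pair of S100a10 with S100a4 are not read, because Anxa1 and S100a4 lay below the gauge.

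**Figure D2:**
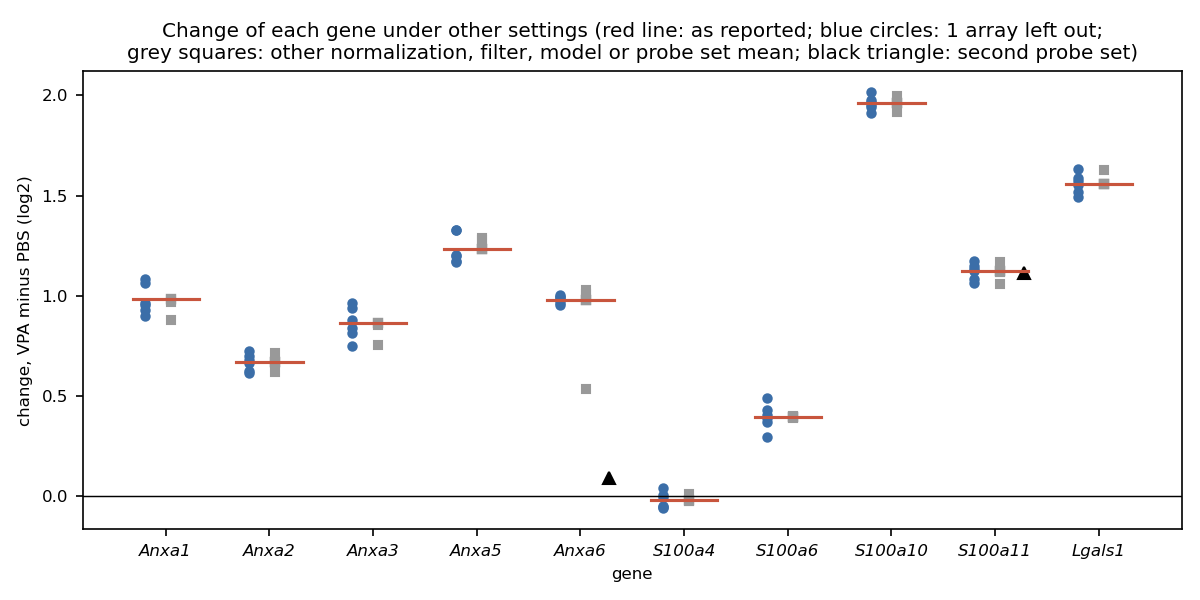
Change of each gene in log2 units under other settings: the red line is the reported value, blue circles leave out 1 array, grey squares are other normalizations, filters, models or the mean of probe sets, and black triangles are a second probe set. S100a10 stayed between 1.91 and 2.02 and Lgals1 between 1.495 and 1.63, while Anxa6 dropped to 0.53 with the mean of its probe sets and to 0.09 with the dimmer one.

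Of the other genes of the families some rose, few fell and many lay below the gauge. Of the 7 other annexin genes 3 rose and 1 fell. Their median change of -0.0042 was that of Anxa8, a gene below the gauge in both groups. Anxa4, an annexin of secretory epithelia, rose by 0.69 (SE 0.09, limma adjusted p = 0.000741) with its PBS mean, 6.11, under the gauge. Anxa7 and Anxa11 rose by 0.38 (SE 0.06) and 0.47 (SE 0.12), and the call of Anxa11, an annexin of RNA granule transport linked to motor neuron disease, did not hold with unmoderated variances (adjusted p = 0.129), without PBS replicate 2 (0.0678) or without VPA replicate 2 (0.0503). Anxa9, an annexin whose calcium sites have degenerated, fell by 0.41 to a VPA mean of 6.06, below the gauge. Anxa8, Anxa10 and Anxa13 lay below the gauge in both groups and did not pass.

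Among the 12 other S100 genes of the list, which leaves out S100a2, 0 rose and 1 fell by limma, and at an unadjusted p under 0.05 the counts were 1 and 1. S100a1, an S100 protein of heart and of some neurons, fell from 7.52 ± 0.04 to 7.30 ± 0.04 (SD, n = 3), by 0.22 (SE 0.06, limma adjusted p = 0.0156). That call was lost without PBS replicate 1 (adjusted p = 0.0584), PBS replicate 3 (0.0734) or VPA replicate 2 (0.0562). S100a13, which helps the release of growth factors that lack a signal peptide, differed by 0.21 (SE 0.07, limma adjusted p = 0.0579). It passed with quantile normalization (0.04), the filters on dim genes (0.0383 to 0.0416), array weights (0.00682) and without VPA replicate 1 (0.00738). S100a7a also passed with array weights (0.0345) and without VPA replicate 1 (0.0477), so the count of rises was then 2. S100b, the astrocyte and Schwann cell member, read 5.81 ± 0.05 with PBS and 5.81 ± 0.04 with VPA, below the gauge, and 7 of the 12 genes lay below it in both groups.

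Of 8 other galectin genes 2 rose and 0 fell, and the counts were the same at an unadjusted limma p under 0.05. With PBS replicate 1 or PBS replicate 2 left out, 1 rose. Lgals9, a galectin with paired carbohydrate-binding domains that regulates immune cells, rose from 6.66 ± 0.13 to 7.37 ± 0.03 (SD, n = 3), by 0.71 (SE 0.07, limma adjusted p = 0.000136). Lgals3, the chimeric galectin of macrophages and epithelia, rose by 0.26 (SE 0.06, limma adjusted p = 0.0121), which no longer passed when PBS replicate 1 (0.0522) or PBS replicate 2 (0.0612) was left out. Lgals8 differed by 0.00098 (SE 0.07) and the galectin-related gene Lgalsl by 0.0018 (SE 0.06), neither past the threshold and both of a sign that turned under some settings. Within each array, Lgals1 minus Lgals3 shifted by 1.30 (exact permutation p = 0.1).

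**Figure D3:**
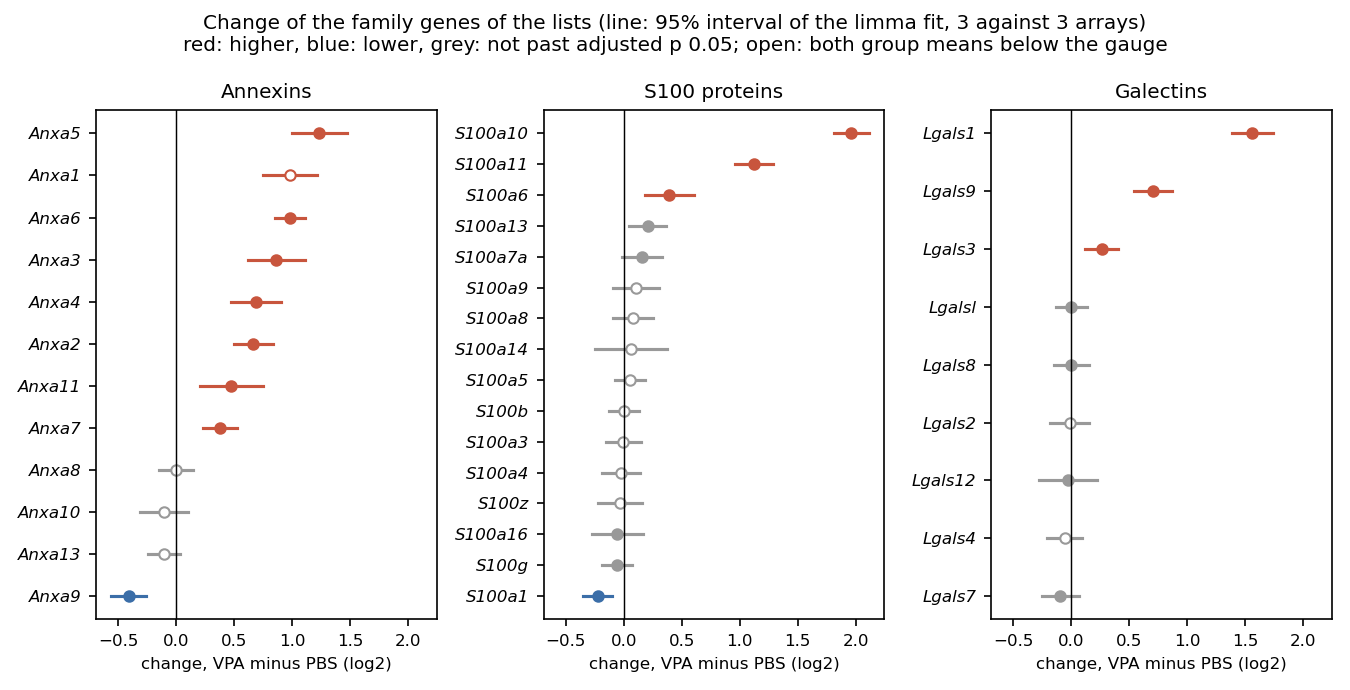
Change of the annexin, S100 and galectin genes of the lists (VPA minus PBS, log2) with its 95% interval, red where higher, blue where lower and grey where the adjusted p is not under 0.05; open symbols have both group means below the gauge. S100a10 and Lgals1 stand at the right end of their families, at 1.96 and 1.56, while most other S100 genes and galectins lie near 0.

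The S100 genes of chromosome 3 fall in separate places of the annotated gene order. In the larger group, which runs from S100a1 to S100a9 and holds S100a4 and S100a6, 12 genes were measured. There S100a6 rose, S100a1 fell and the other 10 did not pass, among them S100a2, which was on no list and is counted here after its value was seen. Of these, S100a14, S100a3, S100a2, S100a4, S100a5, S100a8 and S100a9 lay below the gauge in both groups. For such genes a missing call describes the signal and not the transcript. S100a11 and S100a10 lie next to each other, beyond 56 other protein-coding genes, and both rose. Tchhl1, the nearest measured gene on the far side of S100a11, differed by 0.09 (limma adjusted p = 0.56), and Tdpoz2, on the far side of S100a10, by 0.12 (limma adjusted p = 0.42). The nearest measured genes on both sides of all 10 genes were 17 genes that are not among the 10. Of these 1 rose and 1 fell, beside 13.6% higher and 15.7% lower over all genes. Their median change was 0.02, and 7 of the 17 lay below the gauge in both groups. The gene that rose was Ccdc69, beside Anxa6, with both means below the gauge, and the gene that fell was Foxb1, beside Anxa2, at -0.30 (limma adjusted p = 0.0186). These neighbours were named for their place.

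**Figure D4:**
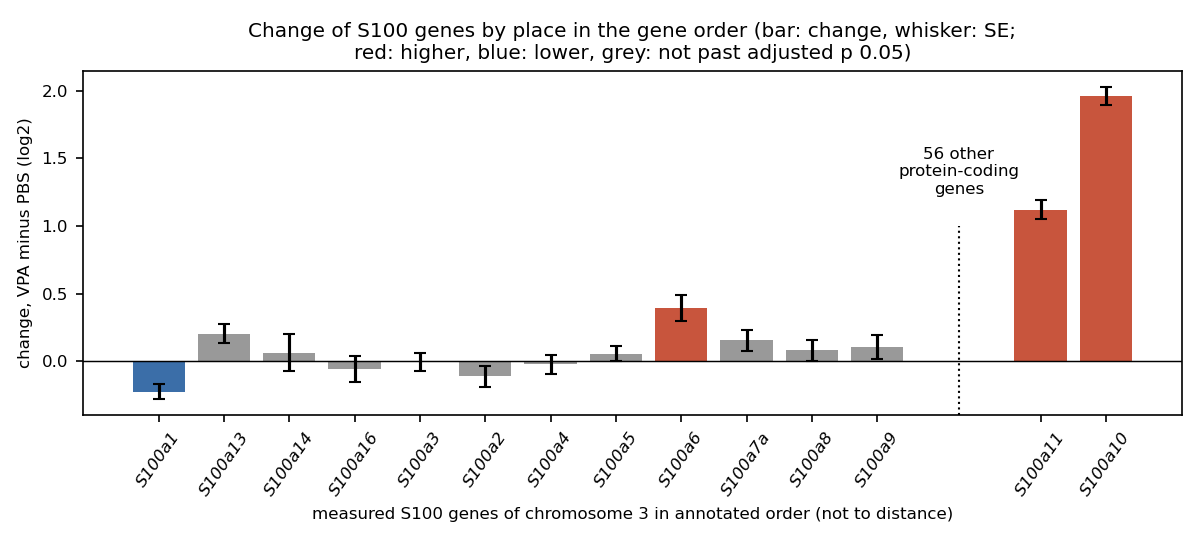
Change of the 14 measured S100 genes of chromosome 3 (VPA minus PBS, log2, bar with SE), in the order of the annotation and not to distance, red where higher, blue where lower and grey where not past the threshold. The tallest bars, S100a11 at 1.12 and S100a10 at 1.96, stand side by side past a stretch of 56 other protein-coding genes. S100a14, S100a3, S100a2, S100a4, S100a5, S100a8 and S100a9 lay below the background gauge in both groups.

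Partner genes were read from lists that were chosen with earlier results of these data known. In the list of membrane repair and annexin partners 8 of 18 rose and 0 fell (median 0.14, beside 0.0013 over all genes), and at an unadjusted limma p under 0.05 the counts were 10 and 0. Cavin1 and Cav1, which build caveolae, rose by 0.92 (SE 0.08, limma adjusted p = 7.04e-05) and 0.64 (SE 0.09). Myof, the ferlin gene myoferlin for membrane fusion and repair, rose by 0.87 (SE 0.06, limma adjusted p = 1.73e-05) and Tgm2, which encodes a calcium-dependent crosslinking enzyme, by 0.85 (SE 0.08).

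In the plasminogen system, which annexin A2 and S100A10 assist at the cell surface, 4 of 8 rose and 1 fell (median 0.23). Plat, the tissue plasminogen activator gene that neurons also express, rose from 9.46 ± 0.10 to 9.82 ± 0.17 (SD, n = 3), by 0.36 (SE 0.09, limma adjusted p = 0.0178), which did not pass with unmoderated variances (0.112) or with PBS replicate 1 left out (0.0802). Plau and Plaur, the urokinase gene and its receptor, differed by 0.71 (SE 0.10) and 0.33 (SE 0.07), with all means below the gauge. Plgrkt, a plasminogen receptor gene, fell by 0.32 (SE 0.07, limma adjusted p = 0.00681). With dim genes filtered at the gauge, or with unmoderated variances, 1 gene of the list rose, and the count was 2 without PBS replicate 1.

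Of 15 S100 partners and receptors 3 rose and 3 fell (median -0.0004), near the shares over all genes, 13.6% higher and 15.7% lower. Ppfibp1, a liprin that binds S100A4, rose by 0.55 (SE 0.06, limma adjusted p = 0.000228), and Myh9, the non-muscle myosin heavy chain that S100A4 binds, by 0.46 (SE 0.06, limma adjusted p = 0.000851), a call lost with the mean of its probe sets (0.232). Hltf, a chromatin remodeller that binds the S100A10 and annexin A2 complex, fell by 0.29 (SE 0.06). Cd36, which binds fatty acids, differed by 0.29 with both means below the gauge. The count of falls was 1 without PBS replicate 1 and 1 without PBS replicate 2.

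Among galectin-1 ligands and enzymes that shape their glycans, 9 of 19 rose and 2 fell (median 0.13). Thy1, a surface glycoprotein of neurons and fibroblasts, rose from 7.04 ± 0.14 to 8.51 ± 0.24 (SD, n = 3), by 1.47 (SE 0.12, limma adjusted p = 3.87e-05). Mcam, an adhesion molecule of vessels, rose by 0.88 (SE 0.06, limma adjusted p = 1.11e-05), and Plxna4, a semaphorin receptor gene, by 0.73 (SE 0.09). Fut9, whose enzyme makes the Lewis X epitope of neural progenitors, fell by 0.70 (SE 0.06, limma adjusted p = 4.08e-05).

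Markers of some cell types moved with the 10 genes. Of 16 fibroblast and mesenchyme markers 15 rose and 0 fell (median 1.38), 16 and 0 at an unadjusted limma p under 0.05, and their mean log2 level per array was 7.54 to 7.74 on PBS arrays and 8.96 to 9.05 on VPA arrays. For the 10 genes this mean was 7.70 to 7.82 with PBS and 8.69 to 8.76 with VPA. Neural crest and Schwann cell markers rose in 7 of 7 (levels 6.75 to 6.87 against 7.87 to 8.06), and endothelial markers in 9 of 10 (6.23 to 6.32 against 6.86 to 7.01). In the fibroblast list Tcf21 was below the gauge in both groups, in the endothelial list Tek and in the crest list Cdh19. With these included, the PBS mean was below the gauge for 5 of 10 endothelial, 2 of 16 fibroblast and 2 of 7 crest markers. The size of a change that starts below the gauge is not defined. The part of these cell types in the rises of the 10 genes was not tested.

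The remaining marker lists differed from one another. Neuronal markers mostly fell, and most macrophage and pluripotency markers lay below the gauge. Of 12 macrophage and microglia markers 0 passed in either direction by limma, with 1 higher (Cx3cr1) and 1 lower (Cd68) at an unadjusted p under 0.05. Without VPA replicate 1 both passed, and so with array weights. Of the 12, 10 lay below the gauge in both groups, Aif1, Csf1r, Itgam and Adgre1 among them, with levels of 5.64 to 5.71 and 5.61 to 5.73. Smooth muscle markers rose in 3 of 8, with Acta2 at 1.85, Des at 0.83 and Smtn at 0.58, and fell in 1, Cnn1. Both Cnn1 means lay below the gauge, and its call was lost with any 1 array left out. Of the 8 markers, 4 lay below the gauge in both groups. Epithelial markers rose in 3 of 12, Krt8 the most at 0.56, and fell in 1, Cdh1, whose call was lost without PBS replicate 1 or 3 or VPA replicate 2 or 3. Of 9 astrocyte markers 3 rose, Fgfr3 the most at 0.98, and 3 fell. Of 15 neuronal markers 10 fell and 2 rose, Nefm by 1.24 and Nefl by 0.53 (mean levels 10.78 to 10.86 against 10.70 to 10.73), and all 15 lay above the gauge in both groups. The count of falls was 6 without PBS replicate 2. Pluripotency markers lay below the gauge in 8 of 8 with PBS, and 1, Klf4, rose, a call lost without any 1 of the PBS replicates.

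**Figure D5:**
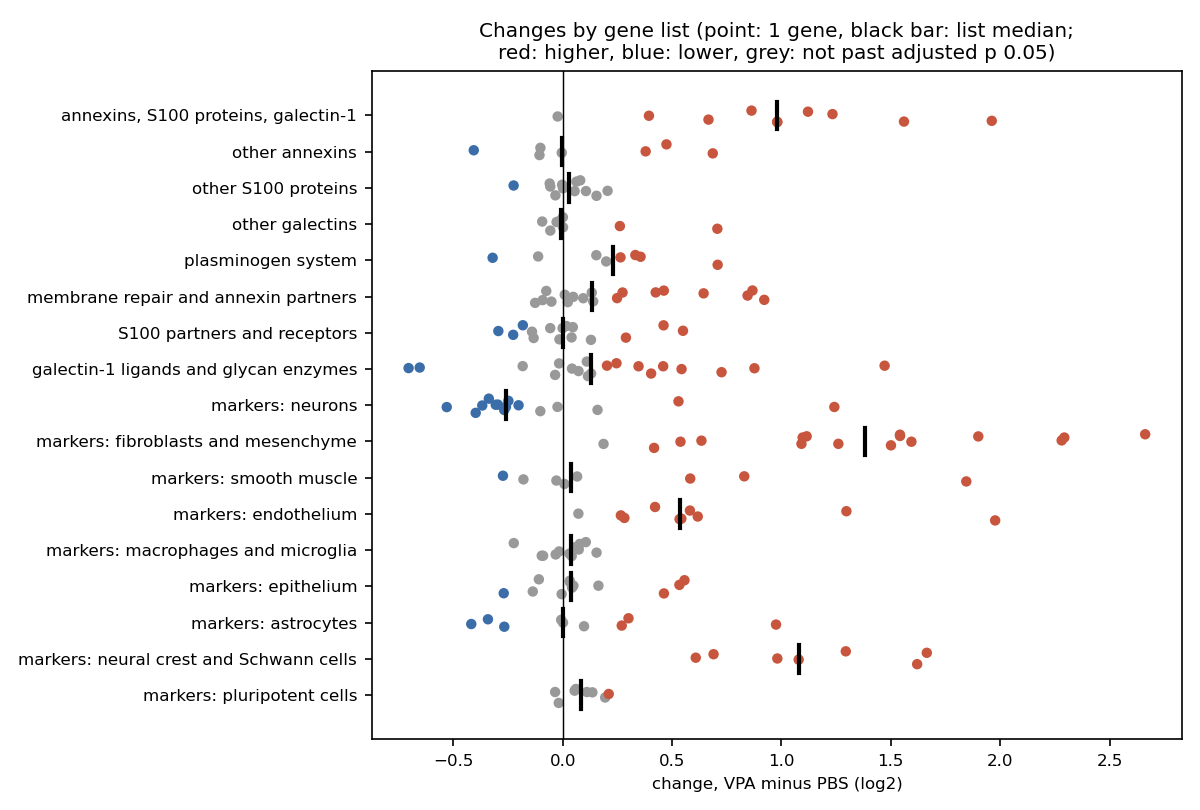
Change of each gene (VPA minus PBS, log2) by gene list, with the list median as a black bar, red where higher, blue where lower and grey where not past the threshold. The 10 genes have a median of 0.98, the fibroblast markers 1.38 and the neural crest markers 1.08. The lists of other annexins, S100 proteins and galectins centre near 0, with 3 of 7, 7 of 12 and 2 of 8 genes below the gauge in both groups. Of the 7 other annexins 3 rose and 1 fell, and their median is that of Anxa8, a gene below the gauge.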

How the data were processed

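Affymetrix arrays of 6 cultures were compared. The authors deposited 1 table of normalized log2 signals, 35556 probe sets by 6 arrays; base 2 was inferred from the range of 2.50 to 13.89. Per the submitters' processing notes, Partek 6.5 and mm9 were used, with roles unstated. How background and arrays were normalized is not given in the sources used here. Normalization between arrays makes every change relative to the other genes. GEO's platform annotation left 12146 probe sets unnamed, gave several symbols to 1621 and a single symbol to 21789. These were updated by Entrez ID through a RefSeq table (GRCm38.p6), which matched 21698. The brightest probe set stood for each of 19938 genes.

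VPA was compared with PBS across all genes with limma 3.58.1 in R 4.3.3 (lmFit, eBayes, no covariates), with Benjamini-Hochberg adjustment over all genes. The fit was tested on simulated data. No detection calls, scan dates or batches were used here, and the number of arrays limits precision. All 10 genes and all family genes of the lists could be named. Of each other list up to 4 called genes with the largest change could be named, or those with the smallest p where none passed. Tcf21, Tek, Aif1, Csf1r, Itgam and Adgre1 were named outside this rule, as markers below the gauge. Members and lists were chosen with earlier results of these data known, and so was the background gauge. Alternatives covered normalization, filters, variance models, weights, replicate number, thresholds, probe sets and each array left out. Promoter windows come from RefSeq. Gene order follows the annotated start positions of GRCm38.p6, and distances between genes were not used.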

Additional observations from a re-analysis of the deposited data

How the results depend on the processing

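The 9 rises held with any 1 array left out, quantile normalization, median centring, a trended robust prior, array weights and the mean of probe sets; 8 held with unmoderated variances, at an adjusted p under 0.01 and at 1.5-fold or more. Filters on dim genes left 7 of the 10 at the gauge or the 30th percentile of mean level and 6 at the 50th, and those rose, having been kept for their level. Of 152 alternative values of the 10 genes, 147 kept direction and side of the threshold. No alternative reversed a call. Replicate numbers did not pair the arrays (correlations of deviations -0.02, -0.0085 and 0.02); with the replicate block 9 genes rose, and over all genes 2592 rose and 2818 fell. Over all genes 2702 rose and 3123 fell. The rises numbered 1520 with the 50th percentile filter, 1631 with unmoderated variances, 4342 with array weights, 1579 at 0.01, 695 at 1.5-fold and 1778 (without PBS replicate 2) to 3949 (without VPA replicate 1) with 1 array left out. The falls numbered 1791 at 0.01, 432 at 1.5-fold and 2058 to 4224 over the same arrays left out. At 1.5-fold the rises were 1 of the other annexins, 1 of the other galectins, 1 of the plasminogen system, 4 of membrane repair, 0 of S100 partners and 3 of galectin-1 ligands, and the falls were 0 for other annexins, other S100 genes, the plasminogen system and S100 partners. At 0.01 the rises were 1 for other galectins and 2 for the plasminogen system, and the falls 0 for other S100 genes and 1 for S100 partners. The 50th percentile filter left rises of 0 for other annexins, 1 for other S100 genes, 0 for other galectins, 1 for the plasminogen system and 4 for membrane repair, and 0 falls for other annexins and other S100 genes. Other S100 rises were 1 with quantile normalization, the 30th percentile or the gauge filter and 2 with array weights. Plasminogen rises were 1 with the 30th percentile filter, the gauge filter or unmoderated variances. With 1 array left out, rises were 0 to 2 for other S100 genes, 1 to 2 for other galectins and 2 to 5 for the plasminogen system, and falls 0 to 1 for other S100 genes and 1 to 3 for S100 partners. The cause of these shifts was not tested, beyond filters testing fewer genes. Signal near background limits Anxa1, Anxa3 and S100a4, and 3 arrays a group limit precision.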
